A study of Mus musculus with 2 samples.

Results

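The transcripts described here are those of 10 calcium-binding and sugar-binding proteins often followed as marks of effector and memory lymphocytes: S100a4, S100a6, S100a10, S100a11 and S100a13, the annexins Anxa1, Anxa2 and Anxa6, and the galectins Lgals1 and Lgals3. The list was drawn up by name, with earlier results of these data known. A gene was taken where the platform annotation gives a probe set its symbol and no other. Of the 10 genes 9 were measured in this way, out of 18193 genes on the array, through 18 probe sets. S100a11 has no probe set of its own in that annotation. Of the 2 cell preparations, the first was naive, CD44-negative gamma/delta T cells and the second naive CD8+ alpha/beta T cells. Both were taken from lymph nodes of C57BL/6 mice with no stated genotype change or treatment, and both were purified by negative selection. The labels give neither the age nor the number of the mice. Each preparation was hybridised to 1 array, so that there is no replicate, no error on any ratio and no test, and every ratio compares these 2 preparations only. In bulk RNA of this kind, fewer cells carrying a transcript and less of it per cell cannot be told apart.

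S100 proteins are small EF-hand proteins that bind calcium and then dock onto partner proteins. Annexins bind phospholipid membranes when calcium is present, and Anxa2 forms a complex with S100a10 at the inner face of the plasma membrane. Galectins bind beta-galactoside sugars on glycoproteins such as CD43 and CD45, and galectin-1 is known for restraining T cells. In mouse CD8 T cells, transcripts of S100a4, S100a6, Anxa1, Anxa2, Lgals1 and Lgals3 are low in naive cells and accumulate on differentiation into effector and memory cells.

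Promoter windows from RefSeq on build GRCm38.p6 were held for 7 of the 10 genes, each from 250 bases before to 50 bases after the start. The windows of S100a4, S100a6 and Anxa2 are shown because the gamma/delta signal of these genes was 2-fold or more above the alpha/beta signal. Capitals mark the AP-1 letters TGANTCA, which read the same on both strands, and the TATA box letters TATAAA, searched on both strands.
S100a4, chr3:90603520-90603819, + strand: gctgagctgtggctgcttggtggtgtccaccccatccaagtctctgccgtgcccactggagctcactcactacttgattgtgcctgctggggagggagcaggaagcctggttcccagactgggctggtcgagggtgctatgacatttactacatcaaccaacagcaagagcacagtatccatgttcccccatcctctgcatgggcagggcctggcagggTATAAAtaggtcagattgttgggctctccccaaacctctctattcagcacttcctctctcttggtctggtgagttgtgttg
S100a6, chr3:90612644-90612943, + strand: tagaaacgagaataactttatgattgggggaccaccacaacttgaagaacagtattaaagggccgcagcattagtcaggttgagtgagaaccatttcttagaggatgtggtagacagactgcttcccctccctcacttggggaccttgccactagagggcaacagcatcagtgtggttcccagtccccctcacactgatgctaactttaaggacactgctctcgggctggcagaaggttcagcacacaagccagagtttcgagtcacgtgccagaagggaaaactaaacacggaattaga
Anxa2, chr9:69453433-69453732, + strand: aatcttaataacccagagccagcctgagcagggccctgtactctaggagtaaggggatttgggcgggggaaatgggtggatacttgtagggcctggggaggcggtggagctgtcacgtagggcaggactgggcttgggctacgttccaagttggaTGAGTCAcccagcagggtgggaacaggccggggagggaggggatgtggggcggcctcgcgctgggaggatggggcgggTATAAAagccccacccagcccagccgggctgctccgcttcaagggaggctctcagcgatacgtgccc

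The S100a4 window held TATAAA 31 bases before the start and no TGANTCA. The S100a6 window held neither set of letters. That of Anxa2 held TGAGTCA 95 bases and TATAAA 17 bases before the start. Over the 7 windows TGANTCA occurred in 2 (Anxa2 and S100a11) and TATAAA in 3 (S100a4, Anxa1 and Anxa2). Among all 32851 windows of this length 7.81% held TGANTCA and 13.6% held TATAAA. The shorter letters GGAAG, the core bound by ETS factors, occurred in 6 of the 7 windows and in 71.4% of all windows. CACCC, bound by KLF and SP factors, occurred in 4 of the 7 and in 57.5% of all. In Anxa2 the last letters of TGAGTCA are also the first of a CACCC. These matches describe letters in the windows and carry no measurement of binding.

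The signals are MAS5 values in linear, scaled units. A floor was set at 243.3, the higher of the medians of the arrays. Lower signals were set to this floor before ratios were formed. Where 1 array is under it, the ratio is a bound, written "at least". Where both are, no ratio is given. A gene with several probe sets took the one with the highest mean log2 signal, and was called when its ratio reached 2-fold. Signals are given in the order gamma/delta, then alpha/beta, and a gene is said to lie towards the cells in which its signal was higher. Signals of different probe sets are not on one scale and are not compared.

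Of the 9 measured genes, 8 had a ratio. S100a4, S100a6, Lgals1 and Anxa2 reached 2-fold towards gamma/delta cells, and 0 of the 8 did so towards alpha/beta cells. Among all 11914 genes with a ratio the shares were 5.82% towards gamma/delta and 3.93% towards alpha/beta. Log2 ratios are gamma/delta over alpha/beta throughout. Their median was 1.13 over the 8 genes and 0.03 over all genes that had one. The median falls between Anxa6 and Anxa2. The size of the bounds of S100a4 and S100a6 does not enter it, but both genes count among those above it. Each of them has a ratio through the gamma/delta array alone. The median also depends on the choice of probe sets. It was 0.10 with probe sets averaged and 0.12 when the _x_at, _s_at and _a_at probe sets were left out. The averages took in probe sets under the floor. Of the 8 ratios 7 were above 0, and that of S100a10 was below 0. The 7 include S100a13 and Anxa1, at 0.10 and 0.12. Over all genes with a ratio 6248 were above 0 and 5666 below.

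**Figure D1:**
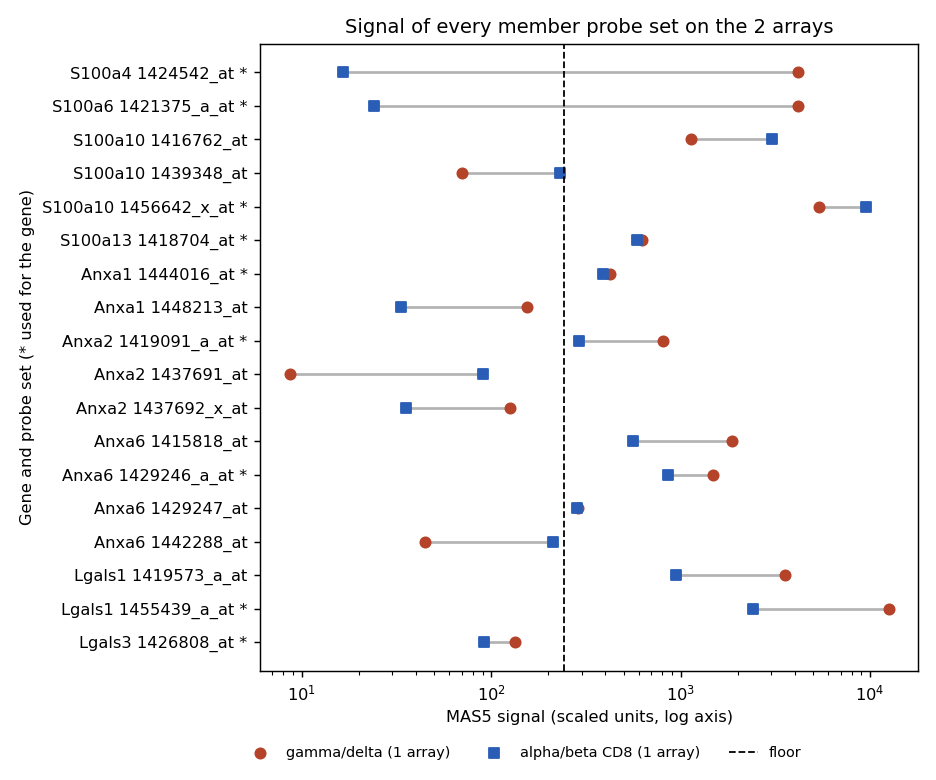
MAS5 signal (scaled units, log axis) of all 18 probe sets of the 9 measured genes, with a circle for the gamma/delta array, a square for the alpha/beta CD8 array and a dashed line at the floor of 243.3. S100a4 and S100a6 stand above the floor on the gamma/delta array alone, and both probe sets of Lgals1 are higher there. Both S100a10 probe sets above the floor are higher on the alpha/beta array.

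S100a4, a protein that binds non-muscle myosin and promotes cell motility, read 4162 for gamma/delta and 16.6 for alpha/beta cells. S100a6, also known as calcyclin, read 4193 and 23.9. Each gene has 1 probe set, so that neither value has a second reading. Both were far above the floor on the gamma/delta array and below it on the other. The bounds were at least 17.1-fold for S100a4 and at least 17.2-fold for S100a6, log2 ratios of at least 4.10 and 4.11. The size of both bounds is set by the floor. A floor at the 70th percentile of signals gave 3.22 and 3.23 on the log2 scale. With the floor at 167.2, the highest reading among 27 bacterial control probe sets with no spike-in, they were 4.64 and 4.65.

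S100a10, the annexin A2 partner, went the other way. Its probe set with the highest signal, 1456642_x_at, read 5368 for gamma/delta and 9551 for alpha/beta cells, 1.78-fold higher in the latter (log2 ratio -0.83). Another probe set, 1416762_at, read 1134 and 3023, a difference of 2.67-fold in the same direction (log2 ratio -1.41). The remaining one lay under the floor on both arrays, at 70.2 and 230.4. Both probe sets with a ratio were thus higher in alpha/beta cells, and whether the gene reached 2-fold depended on the probe set. Averaged over all its probe sets, the one under the floor included, S100a10 had a log2 ratio of -1.32.

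S100a13, which takes part in the export of proteins that lack a signal peptide, read 627.7 and 587.5 on its 1 probe set. Its log2 ratio of 0.10 was small beside the spread between probe sets of one gene, whose pooled SD was 0.50 over the 3317 genes that have 2 or more probe sets with both signals over the floor. Between the arrays, 18 probe sets for spiked-in transcripts had log2 ratios from -0.21 to 0.04, with a median of -0.09. Neither spread is a replicate error.

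The annexins differed among themselves. Anxa2, a membrane and actin organiser, was read by 1419091_a_at as 811.6 on the gamma/delta array against 292.5, which is 2.77-fold (log2 ratio 1.47). Its alpha/beta signal was 1.20 times the floor. The other probe sets, 1437691_at and 1437692_x_at, were under the floor on both arrays, at 8.69 against 90.3 and at 125.5 against 35.5, with opposite signs. The call of Anxa2 therefore rests on 1 probe set. A floor at the 70th percentile turned it into a bound of 0.86 on the log2 scale. Averaging the probe sets left the gene with no ratio, as did leaving out those whose names end in _x_at, _s_at or _a_at.

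Anxa6, an annexin built of a doubled set of repeats, was not called by the probe set used. That set, 1429246_a_at, read 1484 and 862.5, a log2 ratio of 0.78. Another, 1415818_at, read 1876 and 561.3, a ratio of 3.34-fold towards gamma/delta. The next, 1429247_at, read 287.3 and 285.4, a log2 ratio of 0.01, and the last lay under the floor at 44.4 and 212.0. The 3 probe sets with a ratio thus ran from 0.01 to 1.74 on the log2 scale, a range of 1.73. No size of difference can be given for Anxa6. With all its probe sets averaged, the one under the floor included, its log2 ratio was 0.07.

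Anxa1, which inhibits phospholipase A2 and signals through formyl peptide receptors, read 422.7 and 389.8 on 1444016_at, a log2 ratio of 0.12. Its other probe set, 1448213_at, read 154.6 and 33.4, under the floor on both arrays. Anxa1 was thus not called, and 1 of its 2 readings gave no ratio.

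Lgals1, which encodes galectin-1, was higher in gamma/delta cells by both of its probe sets. The set 1455439_a_at read 12531 and 2403, and 1419573_a_at read 3546 and 946.2. The ratios were 5.21-fold and 3.75-fold, log2 ratios of 2.38 and 1.91. They differ by 0.48, and all 4 signals lie above the floor, so that Lgals1 is the called member with 2 readings that go the same way. Among the 8792 genes above the floor on both arrays it had the 32nd highest ratio, and Anxa2 the 158th. S100a10 stood at the other end, with 6.67% of those genes below it. Genes with a bound have no place in this order.

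Lgals3, which encodes galectin-3 and is abundant in macrophages and activated T cells, read 133.4 and 91.3. Both signals lie under the floor, and there is no ratio. The galectin pair thus split into one transcript far above the floor in both preparations and one below it in both.

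**Figure D2:**
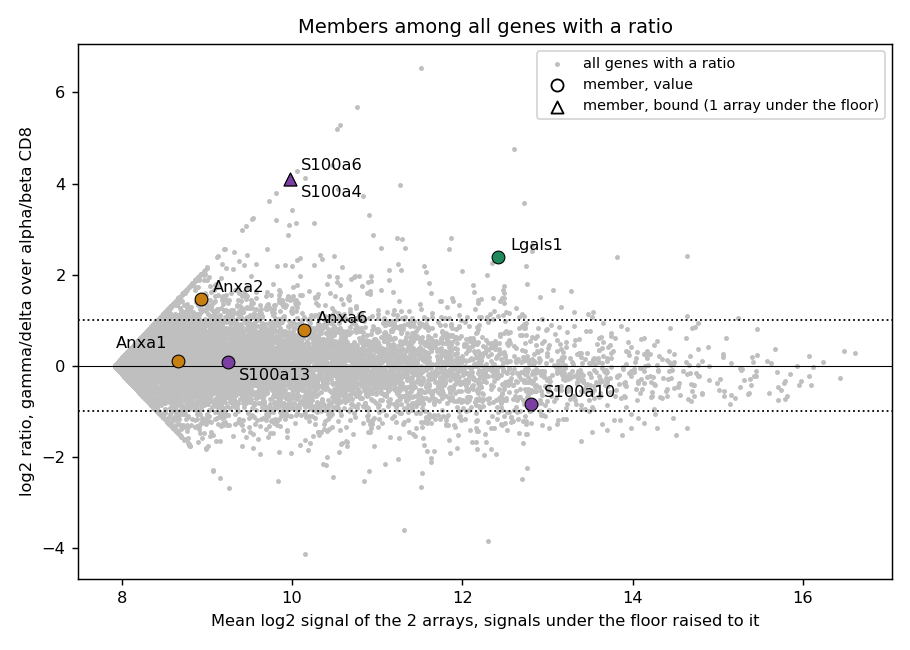
The log2 ratio of gamma/delta over alpha/beta CD8 (1 array each) against the mean log2 signal of the arrays, with signals under the floor raised to it, for the 11914 genes with a ratio in grey and the 8 members in colour. Triangles mark the bounds of S100a4 and S100a6, and dotted lines the 2-fold call. Lgals1 and Anxa2 lie above the upper line, S100a10 lies between the lines below 0.

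Over single probe sets, 12 of the 18 had a ratio and 6 lay under the floor on both arrays. Those that reached 2-fold towards gamma/delta were 6, namely those of S100a4, S100a6, Anxa2, both of Lgals1 and 1 of Anxa6. The 1 that did so towards alpha/beta belongs to S100a10. Over all 20297 probe sets with 1 symbol and a ratio the shares were 5.2% and 4.37%. Probe sets of one gene share the array and the RNA and are not replicates. The median over the 12 was 1.13, against 0.01 over all of them.

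The rest of the S100 family was little represented. Of 12 further S100 genes 9 were on the array, 6 of them under the floor on both arrays, and 0 of the 3 with a ratio reached 2-fold. S100a9, a granulocyte and monocyte protein, read 370.9 and 498.4, and S100g read 228.1 and 262.8. S100a1 read 321.2 and 17.1, a bound of at least 1.32-fold towards gamma/delta. The list's median log2 ratio was -0.11. S100a5 lies between S100a4 and S100a6 in the RefSeq gene order on chromosome 3, next to both, and read 16.6 and 28.8. It was under the floor on both arrays, between genes that were read strongly in gamma/delta cells. S100a1 and S100a14 flank S100a13, and S100a14 lay under the floor at 14.4 and 7.53. Of the 18 genes next to a member that are not members themselves 6 were measured, and 0 of the 3 with a ratio were called. The other measured neighbours were Tchhl1 beside S100a11, under the floor at 126.6 and 124.1, Nol12 beside Lgals1, at 158.3 and 305.3, and Dlgap5 beside Lgals3, at 370.5 and 68.7.

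Of 8 further annexins on the array 5 had a ratio, with a median of 0.38. Anxa7, which is linked to calcium-driven membrane fusion, was 2.19-fold higher in alpha/beta cells, at 508.3 and 1114. Its 3 probe sets ran from -1.13 to 0.55 on the log2 scale, so that they disagree in sign. Anxa4 read 378.6 and 203.4, a bound of at least 1.56-fold towards gamma/delta, Anxa3 read 365.5 and 244.9, and Anxa10 read 348.4 and 267.0. None of these 3 reached 2-fold.

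Of 8 further galectin genes on the array 5 had a ratio, with a median of 0.11. Lgals9, which encodes galectin-9, read 751.8 and 107.0 on its 1 probe set, a bound of at least 3.09-fold towards gamma/delta. Lgals4, a galectin of the gut epithelium, read 412.3 and 239.7, a bound of at least 1.69-fold. Lgalsl read 159.0 and 291.8, and Lgals8, a galectin with paired sugar-binding domains, read 704.4 and 652.5. Lgals9 was thus the 1 called gene of this list.

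Among 25 known binding partners, cargoes and receptors of these proteins, 23 were on the array and 15 had a ratio, with a median of 0.07. Among the partners that carry galectin-binding sugars, the called ones went both ways. Ptprc, which encodes CD45, was not called. It read 27989 and 27773, a log2 ratio of 0.01, with its other probe set at -0.27. Spn, which encodes CD43, was 3.49-fold higher in alpha/beta cells, at 2095 and 7303, and its other probe set with a ratio also lay below 0, at -0.73. Cd7, a glycoprotein through which galectin-1 acts, was 3.08-fold higher in gamma/delta cells, at 1626 and 527.8. Lgals3bp, a secreted glycoprotein that binds galectin-3, read 677.0 and 28.0, a bound of at least 2.78-fold towards gamma/delta. Spn, Cd7 and Lgals3bp were the called genes of this list. Fgf1, a growth factor exported with S100a13, had a log2 ratio of 0.81, Sugt1, a calcyclin-binding co-chaperone, one of -0.62, and Plat, the tissue plasminogen activator that binds annexin A2, one of 0.50. The other Sugt1 probe set with a ratio lay at 0.37, so that its 2 readings disagree in sign. Ahnak, a giant scaffold bound by the complex of annexin A2 and S100a10, read 24546 and 19685, and Myh9, the myosin bound by S100a4, read 70555 and 72245. Their log2 ratios were 0.32 and -0.03. The other Ahnak probe set with a ratio lay at -1.02, so that the 2 disagree in sign. The 5 of Myh9 ran from -0.25 to 0.24.

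In a list of 22 cytoskeletal, membrane and effector genes that accompany the members in differentiated T cells, 21 had a ratio. Of these 4 reached 2-fold towards gamma/delta and 0 towards alpha/beta, 18 were above 0, and the median log2 ratio was 0.40. Over all 11914 genes with a ratio 5.82% and 3.93% were called, and 6248 were above 0. Plac8 was 13.3-fold higher in gamma/delta cells, at 6632 and 499.9, on 1 probe set. Actg1, gamma-actin, was 2.25-fold, Cnn2, calponin 2, 2.22-fold and Tagln2, transgelin 2, 2.03-fold higher. Lmna, lamin A and C, was at least 1.92-fold higher, and Crip1 had a log2 ratio of 0.81. That of Vim, vimentin, was 0.70, and its 3 probe sets ran from 0.67 to 0.77. Cd44, for which the gamma/delta preparation is labelled negative, had a log2 ratio of 0.32 with probe sets from -0.85 to 0.97.

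**Figure D3:**
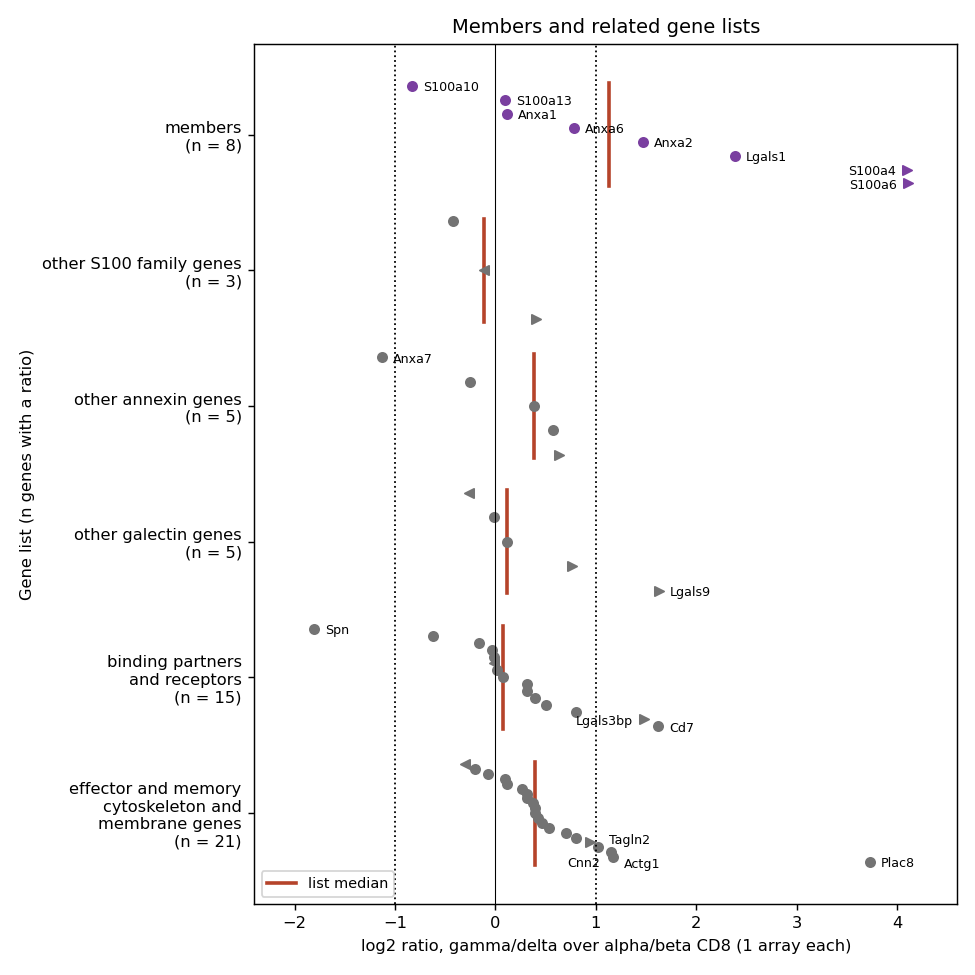
The log2 ratio of gamma/delta over alpha/beta CD8 (1 array each) of each gene with a ratio, for the members (purple) and 5 lists of related genes (grey). Circles are values, triangles are bounds pointing away from 0, red bars are list medians and dotted lines mark 2-fold. The median is 1.13 over the members (0.10 with probe sets averaged) and between -0.11 and 0.40 over the other lists.

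The labelled cells were read as such. Trgv4 and Trgv1 were above the floor on the gamma/delta array alone, Cd8a and Cd8b1 were 12.1-fold and 5.74-fold higher on the alpha/beta array, and the CD3 chain gene Cd3d read 13550 and 13862. Cd3g was 2.31-fold higher in gamma/delta cells, at 8062 and 3486, and Cd3e 1.74-fold, at 59573 and 34224. Cd8a and Cd8b1 also stood above the floor on the gamma/delta array, at 731.1 and 382.3, and Cd4 was under it on both. Since several of the members are also abundant in myeloid cells and stroma, markers of other cells were read beside them. Of 10 neutrophil, monocyte and macrophage markers measured, 5 were under the floor on both arrays (S100a8, Lyz2, Csf1r, Cd14 and Cd68). The other 5 (S100a9, Itgam, Adgre1, Fcer1g and Cybb) were above it on 1 or both arrays, and 0 of them were called. For dendritic cells 3 of 4 markers were under the floor on both arrays, and for B cells 2 of 5. The same held for 2 of 3 NK cell markers, 2 of 8 stromal and endothelial and all 3 erythroid and platelet markers. Some other markers were above it on both arrays. The B cell markers with a ratio (Cd79b, a bound, Ms4a1 and Ighm) all lay towards gamma/delta by the probe set used. The stromal markers went both ways. Of B cells, Ms4a1 read 858.2 and 616.0, and Ighm 1025 and 789.0. Of stroma, Pdpn read 957.4 and 1061, Col3a1 298.9 and 523.1, and Col1a2 980.7 and 536.4. The Col1a2 probe sets ran from -0.74 to 0.87 on the log2 scale. Of the markers in these 5 lists 0 were called by the probe set used for the gene. Between the arrays the 3′ over 5′ signal, which reflects how intact the RNA was, differed for actin, at 6.99 (gamma/delta) and 3.12. It was 3.06 and 3.24 for Gapdh and 3.97 and 4.47 for Tfrc. The part of these in the members' ratios was not tested.

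**Figure D4:**
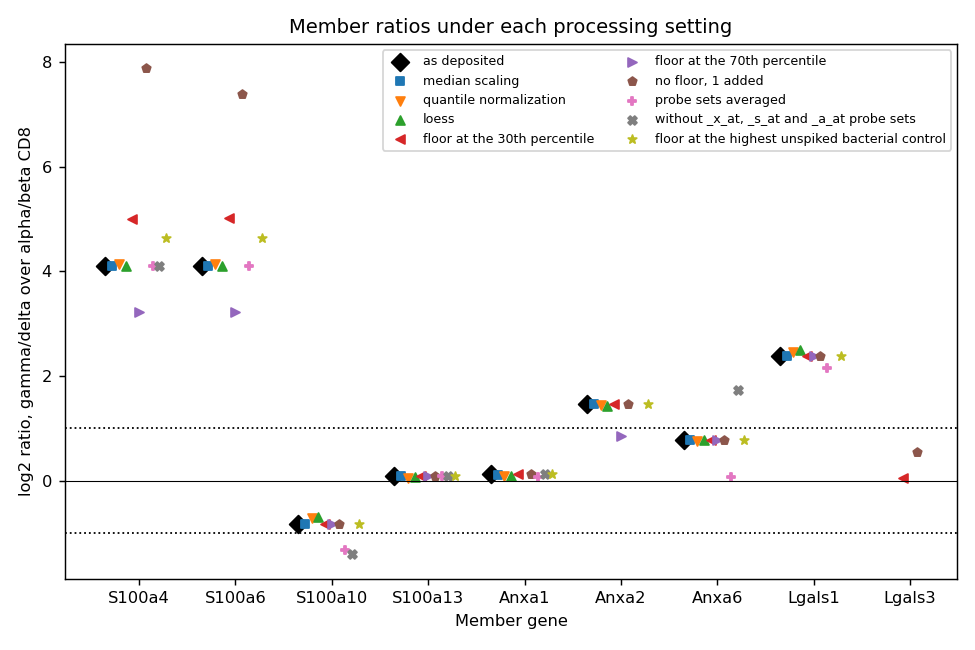
The log2 ratio of gamma/delta over alpha/beta CD8 of each member under the values as deposited (black diamonds) and 9 alternative settings (coloured symbols), with dotted lines at 2-fold. S100a4 and S100a6, whose values are bounds except with no floor, move with the floor from 3.22 upwards, Lgals1 stays between 2.14 and 2.50, and Anxa6 and S100a10 cross a dotted line with the choice of probe set.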

How the data were processed

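RNA from 1 gamma/delta and 1 alpha/beta CD8 T cell preparation was hybridised to Affymetrix MOE430 2.0 arrays. The deposited intensity values are linear probe set signals. Per the submitters' processing notes, the authors ran MAS5 with Affymetrix Expression Console 1.0. Both arrays had a trimmed mean of 500.003 (without the outer 2% on either side), and no further scaling was applied. MAS5 spreads weak signals widely, hence the floor.

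Gene names came from a platform annotation. All 9 measured members had the same symbol by gene identifier in RefSeq (GRCm38.p6). Of 45101 probe sets 34945 had 1 symbol, 932 had several, 9160 were not listed and 64 were controls. Only those with 1 symbol name a gene. Log2 ratios were computed in Python 3.11.15 with pandas 2.3.3, checked on simulated data. The simulated differences were put only into genes with alpha/beta signals well above the floor. S100a4, S100a6 and Anxa2 are not of that kind, so the check does not cover them. With 1 array per group no test was run, and this number limits the precision.

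The members and lists were chosen with earlier results of these data known. Named are all members, genes next to them, and per list the called genes and the 3 next largest ratios. Others (Ahnak, Myh9, Ptprc, Cd44, Capg, Ccl5, Pglyrp1, Klrg1, Prf1) were picked with their values in view. The alternatives were 3 normalizations between arrays, 3 other floors fixed at the start and 1 added after seeing the data (the bacterial controls), 2 probe set rules and calls at 1.5-fold and 3-fold. Scanner files and detection calls were not used here.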

Additional observations from a re-analysis of the deposited data

Results flagged for a closer look

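One probe set that lists a member lies outside the comparisons, because the annotation gives it 3 symbols, Gm12854, S100a11-ps and S100a11. It was picked out because its signal stood above the floor and above that of the other array. It read 7283 on the gamma/delta and 4333 on the alpha/beta array, a log2 ratio of 0.75 (1.68-fold), under the 2-fold call. Which of the 3 it reads cannot be told from the signal, so no value is given to S100a11.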

How the results depend on the processing

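With the values as deposited, 4 members were called towards gamma/delta and 0 towards alpha/beta, with a median of 1.13. S100a4 kept its call under all 9 alternatives that gave it a value, and S100a6 and Lgals1 under all 8 that did. Those are the 3 normalizations, the floors and the probe set rules. Anxa2 kept its call under 6 of 7, the exception being the floor at the 70th percentile (bound of 0.86). Leaving out the _x_at, _s_at and _a_at probe sets, 2 members were higher, S100a4 and Anxa6, of which Anxa6 (1.74) was not called as deposited, and 1 was lower, S100a10. S100a6 and Lgals1 have no other probe set and Anxa2 had no ratio, so 3 of the 4 called members lost their value. Under this setting the median was 0.12 and 2 member probe sets were higher. With probe sets averaged 3 members were higher, 1 was lower and the median was 0.10. Called at 1.5-fold, 5 members were higher and 1 lower, and 7 member probe sets were higher and 2 lower. At 3-fold 3 members were higher and 0 lower, and 5 member probe sets were higher and 0 lower. With no floor and 1 added, 4 members were higher and 0 lower, and 8 member probe sets were higher and 4 lower. Of the genes in the 5 related lists, 7 were higher and 2 lower as deposited. The higher count was 4 for a floor at the 70th percentile, 4 without the probe sets named above, 11 with no floor, 13 at 1.5-fold and 3 at 3-fold. The lower count was 7 with no floor, 1 with probe sets averaged and 1 at 3-fold. The share of all genes called higher and lower moved too, from 5.82% and 3.93% to 15.9% and 14.1% with no floor, to 17.0% and 13.2% at 1.5-fold and to 1.49% and 0.604% at 3-fold. It was 4.80% and 3.37% with probe sets averaged, and 5.33% and 4.09% without the probe sets named above. With the floor at the 70th percentile it was 5.20% and 3.73%. Fewer genes had a ratio under the higher floor, 7612 against 11914. For the other settings the cause was not tested. No called member changed sign under an alternative that gave it a value. No paired analysis was possible because each group has 1 array, and no array could be left out.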
